A study of Mus musculus with 9 samples.

Results

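The genes described here are 49 mouse genes that carry a cell through mitosis: the cyclins and kinases of mitotic entry, the chromosomal passenger complex, the spindle checkpoint, the machinery of anaphase, the kinetochore, the spindle motors, the central spindle and the proteins that compact chromosomes. They were taken as a list of symbols, each matched to 1 Ensembl gene of the counts table. All 49 were among its 21159 genes. A member was used when it had at least 10 counts in 3 or more of the 9 libraries, which 48 members did, and all 48 also passed the filter on low counts of the test. Kif20a, a kinesin of cytokinesis, fell just outside with 3, 5 and 0 counts in Runx2ko, 10, 4 and 0 in Runx2wt and 18, 3 and 6 in BM progenitor, so that only 2 libraries reached 10 counts. Of the members used, Cdc25c, a phosphatase that activates the mitotic cyclin-dependent kinase, reached 10 counts in the fewest libraries, 7 of 9, with 12, 23 and 7 counts in Runx2ko, 29, 9 and 21 in Runx2wt and 67, 30 and 62 in BM progenitor.

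Expression was measured by QuantSeq, which sequences a tag next to the poly(A) tail, so a count follows the number of transcripts and not their length. All cells came from lineage-depleted bone marrow (BM) of Runx2fl/fl mice with a CreERT2 transgene, a Cre recombinase that 4-hydroxytamoxifen (4-OHT) switches on. Per the labels' protocols, cells received a retrovirus for KMT2A-MLLT1-eGFP, a fusion protein of acute leukaemia, with IL-3, IL-6 and stem cell factor in the medium, and were replated in methylcellulose every 7 days. Runx2ko cells (3 libraries) were transformed cells in suspension culture after the second replating, given 400 nM 4-OHT for 24 hours. Runx2wt cells (3 libraries) were transformed in the same way and given ethanol, and keep the floxed alleles and the Cre transgene. BM progenitor cells (3 libraries) were untreated and sampled ahead of the first replating, and whether they expressed the fusion is not said. The labels call the samples independent biological replicates, and they name neither the floxed exon nor the promoter of the Cre transgene. The design asks which transcripts differ between transformed and progenitor cells, and between transformed cells with and without 4-OHT. Culture form and passage differ between transformed and BM progenitor cells, and every Runx2ko library differs from Runx2wt by both 4-OHT and active Cre, so these cannot be told apart from transformation or from loss of Runx2.

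In dividing cells, Cdk1 bound to cyclin B starts mitosis, Plk1 and the Aurora kinases drive spindle assembly and chromosome attachment, and the checkpoint proteins hold the anaphase-promoting complex (APC/C) until every kinetochore is attached. The APC/C with Cdc20 then marks securin and cyclin B for destruction, separase cuts cohesin, and the central spindle directs cytokinesis. The genes are transcribed in late S phase, G2 and M under the DREAM and MuvB complexes with B-Myb and FoxM1. Blood progenitors in cytokine culture divide quickly and express them strongly.

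Library totals ran from 3118594 to 5348177 counts. The libraries labelled Runx2ko do not all look alike. Correlations are Pearson's r across genes, on log2 CPM (counts relative to a library size scaled by TMM). Runx2ko replicate 1 correlated at 0.793 to 0.816 with the other 5 transformed libraries, which correlated at 0.934 to 0.959 among themselves. With the BM progenitor libraries, those 5 correlated at 0.818 to 0.864 and Runx2ko replicate 1 at 0.83 to 0.841. The 8 mast cell and basophil markers summed to 5477 CPM in that library, against 40.2 to 479 CPM in the other transformed libraries and 859 to 910.1 CPM in BM progenitor. Cpa3 (2002 CPM) and Gzmb (2319 CPM) made up most of that sum. Mcpt8 (307 CPM) and Hdc (130 CPM) were below BM progenitor (345 to 412 and 224 to 248 CPM), and the rest of the list was above it. In Runx2ko replicate 1 the 8 erythroid and megakaryocyte markers summed to 1541 CPM (8.47 to 80.1 CPM in the other transformed libraries and 90.3 to 94.5 CPM in BM progenitor). Its 8 monocyte and macrophage markers summed to 145 CPM, against 614 to 1725 CPM in the others. Runx2 itself was at 21.0, 120.1 and 135 CPM in Runx2ko, 159, 179 and 131 CPM in Runx2wt and 53.3, 46.7 and 58.8 CPM in BM progenitor. A 3' tag may lie outside the floxed part, so this does not check the deletion, and Runx2ko below means the libraries under that label. The 8 stem and progenitor markers summed to 1389, 638 and 793 CPM in Runx2ko, 408 to 757 CPM in Runx2wt and 685 to 768 CPM in BM progenitor. Myb alone held 319 to 669 CPM of this in each library. The median of the 7 markers tested, in log2 units from the BM progenitor mean, was -0.46, -4.18 and -3.48 in Runx2ko and -2.35, -4.18 and -4.17 in Runx2wt. Among them Cd34 was at 1.9 to 34.6 CPM in Runx2ko, 1.94 to 14.7 CPM in Runx2wt and 76.9 to 83.1 CPM in BM progenitor, and Kit was at 40.6 CPM or more in every library. The 7 eosinophil markers in the table summed to 8.37 to 17.8 CPM in Runx2ko, 2.49 to 4.14 CPM in Runx2wt and 1352 to 1805 CPM in BM progenitor, and Epx was at 0 in 2 Runx2ko and all 3 Runx2wt libraries. The 8 myeloid progenitor and neutrophil markers summed to 601 to 9918 CPM in Runx2ko, 1256 to 4043 CPM in Runx2wt and 11440 to 15362 CPM in BM progenitor. The part of these differences in cell makeup in the results below was not tested. The extraction protocol speaks of T-ALL (T cell leukaemia) cells, which no other label does. The 8 T cell markers summed to 9.21 to 38.6 CPM in Runx2ko, 8.59 to 11.4 CPM in Runx2wt and 7.3 to 13.2 CPM in BM progenitor, with Cd3e at 0 in 7 libraries.

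In Runx2ko cells the mRNA of most mitosis genes was lower than in BM progenitor cells. Of the 48 members, 39 fell, none rose and 9 did not pass at an adjusted p under 0.05 (edgeR quasi-likelihood test, Benjamini-Hochberg adjustment over 11196 genes), where 7.14% of all genes tested fell and 10.0% rose. The median log2 fold change of the members was -1.60, from -2.85 for Kif23 to 0.15 for Smc4, and the median over all genes tested was 0.07. Log2 fold changes were negative for 47 members (46.2% of all genes). All 3 Runx2ko libraries lay below all 3 BM progenitor libraries for 46 members (18.8% of all genes), the exceptions being Pttg1 and Smc4. Without Runx2ko replicate 1, 42 members fell (12.6% of all genes), with Ccnb2, Cdc25b, Spc25 and Ect2 added and Ncapg lost. The count was 25 without Runx2ko replicate 3 and 19 without BM progenitor replicate 1, 2 or 3. The shares of all genes in those fits are not given here, so these counts are not set against them. Under each of the 17 alternatives tried, 18 members passed. In a bulk sample, fewer cells in mitosis and less of these transcripts per cell cannot be told apart.

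**Figure D1:**
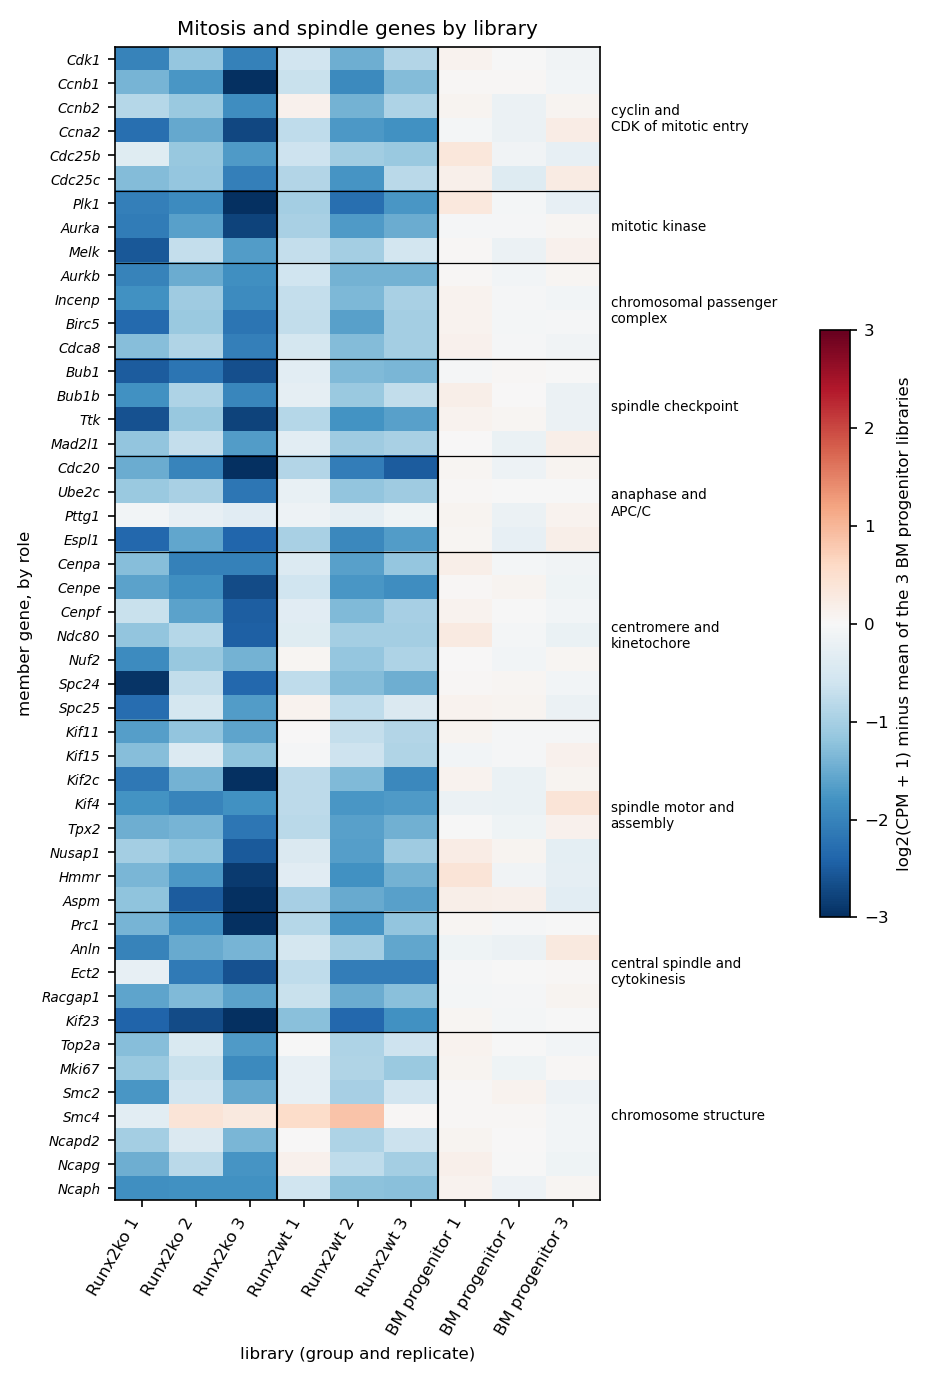
Level of each of the 48 members (rows, grouped by role) in each of the 9 libraries (columns), as log2(CPM + 1) minus the mean of the 3 BM progenitor libraries, with colours ending at 3 log2 units either way. Blue fills the columns of both transformed groups, most deeply in Runx2ko replicate 3 and most lightly in Runx2wt replicate 1. Runx2ko replicate 2 is no deeper than Runx2wt replicate 2. Blue is faint or missing in the rows of Pttg1 and Smc4.

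Promoters of mitotic genes are known for paired CCAAT boxes, bound by NF-Y, and for the cell cycle genes homology region (CHR), bound by MuvB complexes. RefSeq promoter windows (build GRCm38.p6, 250 bases before to 50 bases after the start) were at hand for 41 of the 48 members, in 43 windows. They were searched on both strands for CCAAT (or ATTGG) and for the CHR-type hexamers TTTGAA (or TTCAAA) and TTTAAA, which reads the same on both strands. A CHR-type hexamer was found in 33 of 41 members (80.5%), against 30.6% of all 27025 genes with a window and 27.6% of 29 genes of S phase. At least 1 CCAAT was found in 73.2% of members, against 41.1% of all genes and 58.6% of S phase genes. Both motifs stood together in 68.3% of members, against 12.2% of all genes, and matches of the different motifs shared bases in 1 member window (2.33%) and 0.201% of all windows. The median log2 fold change between Runx2ko and BM progenitor was -1.67 over the 33 members with a CHR-type hexamer and -1.50 over the 8 without one. Each match is a run of letters, not a tested site. The RefSeq start lay within 50 bases of the 5′ end of the GENCODE gene for 35 of the 43 windows, and the windows of Pttg1, Kif4, Cdca8 and Kif2c lay wholly inside the gene. The windows below are those of the 3 members with the lowest fold changes and of Cdc20 and Ccnb1 as APC/C activator and mitotic cyclin. Capitals mark the motifs, and each window is written 5′ to 3′ on the strand of its gene.
Kif23, chr9:61946750-61947049, minus strand: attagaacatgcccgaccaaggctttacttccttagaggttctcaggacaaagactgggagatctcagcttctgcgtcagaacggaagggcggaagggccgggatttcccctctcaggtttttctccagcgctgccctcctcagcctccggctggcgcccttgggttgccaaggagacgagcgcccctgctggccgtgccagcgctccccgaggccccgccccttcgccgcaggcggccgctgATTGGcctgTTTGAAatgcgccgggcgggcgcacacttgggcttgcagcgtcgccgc
Bub1, chr2:127831810-127832109, minus strand: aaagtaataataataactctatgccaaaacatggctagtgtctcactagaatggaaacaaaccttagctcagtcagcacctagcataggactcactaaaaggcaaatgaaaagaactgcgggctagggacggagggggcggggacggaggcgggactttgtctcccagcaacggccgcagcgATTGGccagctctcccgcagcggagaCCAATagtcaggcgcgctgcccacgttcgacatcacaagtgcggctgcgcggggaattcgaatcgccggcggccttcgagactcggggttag
Plk1, chr7:122159185-122159484, plus strand: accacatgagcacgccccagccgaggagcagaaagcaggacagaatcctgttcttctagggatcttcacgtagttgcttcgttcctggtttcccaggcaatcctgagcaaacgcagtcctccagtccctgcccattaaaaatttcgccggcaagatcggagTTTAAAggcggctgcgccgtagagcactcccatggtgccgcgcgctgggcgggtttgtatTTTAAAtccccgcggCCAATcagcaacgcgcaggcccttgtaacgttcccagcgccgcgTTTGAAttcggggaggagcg
Cdc20, chr4:118437294-118437593, minus strand: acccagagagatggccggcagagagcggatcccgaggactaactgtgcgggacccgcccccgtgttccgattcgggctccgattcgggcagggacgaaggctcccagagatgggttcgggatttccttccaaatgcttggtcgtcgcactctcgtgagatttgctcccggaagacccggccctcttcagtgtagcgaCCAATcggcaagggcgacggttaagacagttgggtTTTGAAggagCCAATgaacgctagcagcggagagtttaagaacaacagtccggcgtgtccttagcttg
Ccnb1, chr13:100786437-100786736, minus strand: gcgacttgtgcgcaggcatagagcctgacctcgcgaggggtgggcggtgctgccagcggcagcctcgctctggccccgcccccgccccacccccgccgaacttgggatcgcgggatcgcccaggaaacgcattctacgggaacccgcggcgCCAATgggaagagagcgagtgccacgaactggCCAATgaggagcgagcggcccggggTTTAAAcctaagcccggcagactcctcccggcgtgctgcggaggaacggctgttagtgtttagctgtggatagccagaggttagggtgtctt
Kif23 and Cdc20 hold CCAAT and TTTGAA next to each other near the start, and Bub1 holds a CCAAT pair without a CHR-type hexamer. Plk1 holds CCAAT with both TTTAAA and TTTGAA, and Ccnb1 holds CCAAT with TTTAAA.

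Kif23 encodes a kinesin of the centralspindlin complex that bundles the central spindle (ENSMUSG00000032254, GRCm38 chromosome 9, 61915905 to 61946774). It was at 27.2, 22.1 and 12.5 CPM in Runx2ko, 61.7, 28.3 and 41.2 CPM in Runx2wt and 154, 143 and 148 CPM in BM progenitor. The 3 groups did not overlap, although the lowest Runx2wt library was just above the highest Runx2ko library. Against BM progenitor the log2 fold change was -2.85 (SE 0.34, edgeR adjusted p = 0.00236) in Runx2ko and -1.76 (SE 0.32, edgeR adjusted p = 0.0121) in Runx2wt. Its partner Racgap1, the GTPase-activating part of centralspindlin, fell in Runx2ko and in Runx2wt (log2 fold changes -1.51 and -1.11), and its levels in Runx2ko and Runx2wt overlapped. Prc1, which crosslinks antiparallel microtubules, was at 52.7, 38.1 and 16.8 CPM in Runx2ko, 76.8, 40.2 and 60.9 CPM in Runx2wt and 146, 137 and 138 CPM in BM progenitor, and fell in Runx2ko (-1.97, SE 0.38, edgeR adjusted p = 0.0117). Anln, the scaffold anillin of the contractile ring, fell in Runx2ko as well (-1.70). Ect2, the exchange factor that activates RhoA for the ring, was at 41.1, 10.5 and 7.05 CPM in Runx2ko, 28.2, 10.8 and 10.8 CPM in Runx2wt and 47.6, 48.02 and 50.1 CPM in BM progenitor. Runx2ko replicate 1 stood well above the other Runx2ko libraries and close to BM progenitor. Ect2 did not pass in Runx2ko (log2 fold change -1.33, SE 0.61, edgeR adjusted p = 0.16), but without that library it fell (-2.45, edgeR adjusted p = 0.00195).

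Among the kinases, Plk1 (polo-like kinase 1; ENSMUSG00000030867, GRCm38 chromosome 7, 122159439 to 122169873) was at 115, 129 and 39.0 CPM in Runx2ko, 235, 99.2 and 143 CPM in Runx2wt and 594, 457 and 405 CPM in BM progenitor. Every transformed library was under the lowest BM progenitor library, and Runx2ko and Runx2wt overlapped. Against BM progenitor it fell in Runx2ko (log2 fold change -2.36, SE 0.45, edgeR adjusted p = 0.0117) and in Runx2wt (-1.61, SE 0.44, edgeR adjusted p = 0.0419). Aurka, the Aurora kinase of the centrosomes, likewise fell in Runx2ko (-2.12) and in Runx2wt (-1.37). Melk, a kinase with high levels in dividing progenitors, fell in Runx2ko (-1.52, edgeR adjusted p = 0.0379) and did not pass in Runx2wt (-0.79, edgeR adjusted p = 0.216).

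The 4 genes of the chromosomal passenger complex, which corrects faulty attachments, all fell in Runx2ko. Aurkb, its kinase, was at 13.9, 20.4 and 15.7 CPM in Runx2ko, 38.6, 21.3 and 21.4 CPM in Runx2wt and 59.7, 55.6 and 60.7 CPM in BM progenitor, without overlap of any groups. Birc5 (survivin), the most abundant of them, was at 101, 233 and 111 CPM in Runx2ko, 302, 164 and 248 CPM in Runx2wt and 542, 484 and 495 CPM in BM progenitor. The log2 fold changes of Runx2ko against BM progenitor were -1.81 for Aurkb, -1.77 for Birc5, -1.54 for the scaffold Incenp and -1.34 for Cdca8 (borealin), and those of Runx2wt were -1.11, -1.09, -0.99 and -0.91, where only Aurkb and Incenp passed.

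All 4 checkpoint genes fell in Runx2ko and none passed in Runx2wt. Bub1 (ENSMUSG00000027379, GRCm38 chromosome 2, 127801122 to 127831865) encodes a kinase that recruits checkpoint proteins to kinetochores. It was at 5.82, 7.42 and 5.15 CPM in Runx2ko, 29.9, 14.4 and 13.9 CPM in Runx2wt and 36.7, 38.3 and 37.0 CPM in BM progenitor. All Runx2ko libraries were well below the lowest Runx2wt library, and Runx2wt replicate 1 was near BM progenitor. The log2 fold change was -2.59 (SE 0.34, edgeR adjusted p = 0.0031) for Runx2ko against BM progenitor and -0.93 (SE 0.31, edgeR adjusted p = 0.0754) for Runx2wt. Bub1b (BubR1), which binds and inhibits Cdc20, was at 46.3, 87.0 and 42.3 CPM in Runx2ko, 139, 76.2 and 99.3 CPM in Runx2wt and 188, 166 and 147 CPM in BM progenitor, and fell in Runx2ko (-1.51). Ttk (the kinase Mps1) and Mad2l1 (Mad2) fell in Runx2ko with log2 fold changes of -2.05 and -1.17. Ttk, at 5.5, 17.3 and 4.88 CPM in Runx2ko, 21.1, 10.5 and 11.96 CPM in Runx2wt and 42.2, 40.7 and 34.6 CPM in BM progenitor, had the lowest log2 fold change of the role in Runx2wt (-1.42, edgeR adjusted p = 0.0712).

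Of the cyclins and regulators of entry, 4 of 6 fell in Runx2ko and 1 in Runx2wt. Cdk1, their kinase, was at 175, 317 and 172 CPM in Runx2ko, 469.8, 253 and 381 CPM in Runx2wt and 764, 697 and 658 CPM in BM progenitor. BM progenitor was above all transformed libraries, and Runx2ko replicate 2 was inside the range of Runx2wt. Its log2 fold change was -1.67 (SE 0.29, edgeR adjusted p = 0.00839) in Runx2ko and -0.94 (SE 0.29, edgeR adjusted p = 0.0565) in Runx2wt. Ccna2 (cyclin A2, active from S phase on) was at 33.0, 55.0 and 23.6 CPM in Runx2ko, 96.0, 48.2 and 45.1 CPM in Runx2wt and 157, 143 and 191 CPM in BM progenitor, and fell both in Runx2ko (-2.13) and in Runx2wt (-1.37). Ccnb1 (cyclin B1) and Cdc25c fell in Runx2ko (-1.95 and -1.71). Ccnb2 (cyclin B2) was at 42.7, 35.4 and 20.6 CPM in Runx2ko, 85.4, 28.3 and 40.6 CPM in Runx2wt and 82.8, 68.2 and 82.6 CPM in BM progenitor, and did not pass in Runx2ko (-1.25, edgeR adjusted p = 0.0602). Cdc25b, another activating phosphatase, was at 29.4, 16.7 and 11.1 CPM in Runx2ko, 24.5, 18.01 and 17.2 CPM in Runx2wt and 48.4, 35.6 and 32.3 CPM in BM progenitor, and did not pass either (-1.03, edgeR adjusted p = 0.0699). The Runx2ko libraries of both genes lay below BM progenitor and overlapped Runx2wt.

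In the anaphase group, Cdc20 was at 43.7, 31.0 and 10.3 CPM in Runx2ko, 67.0, 28.8 and 21.4 CPM in Runx2wt and 130.3, 112 and 133 CPM in BM progenitor. Ube2c, the ubiquitin-conjugating enzyme of the APC/C, was at 108, 119.9 and 51.5 CPM in Runx2ko, 203, 103 and 112 CPM in Runx2wt and 239.9, 233 and 232 CPM in BM progenitor. Espl1, the separase that opens cohesin, was at 13.6, 24.2 and 13.3 CPM in Runx2ko, 37.1, 18.3 and 22.3 CPM in Runx2wt and 76.8, 61.8 and 82.4 CPM in BM progenitor. For these 3 genes every transformed library was below BM progenitor, and Runx2ko and Runx2wt overlapped. They fell in Runx2ko, with log2 fold changes of -2.14 for Cdc20, -1.34 for Ube2c and -2.10 for Espl1, and Espl1 fell in Runx2wt too (-1.50). Pttg1, which encodes securin, the inhibitor of separase, was at 62.1, 55.2 and 51.5 CPM in Runx2ko, 58.5, 54.0 and 59.8 CPM in Runx2wt and 69.2, 57.5 and 70.3 CPM in BM progenitor. Its groups overlapped in every comparison. Its log2 fold change was -0.22 in Runx2ko (SE 0.16, edgeR adjusted p = 0.36) and -0.19 in Runx2wt (SE 0.16, edgeR adjusted p = 0.434).

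Kinetochore genes fell for 6 of 7 members in Runx2ko. Cenpa, the histone H3 variant of centromeres and the most abundant of them, was at 131, 76.3 and 76.2 CPM in Runx2ko, 237, 102 and 142 CPM in Runx2wt and 356, 301 and 295 CPM in BM progenitor. Cenpe, a kinesin that carries chromosomes to the equator, was at 40.1, 33.9 and 18.4 CPM in Runx2ko, 81.5, 36.0 and 33.1 CPM in Runx2wt and 128, 131 and 114 CPM in BM progenitor, and was the only one of the 7 that fell in Runx2wt as well (log2 fold changes -2.01 in Runx2ko and -1.30 in Runx2wt). Both genes were below BM progenitor in every transformed library, with overlap between Runx2ko and Runx2wt. The 4 subunits of the Ndc80 complex, which holds the microtubule end, had log2 fold changes in Runx2ko of -1.70 for Spc24, -1.55 for Nuf2, -1.43 for Ndc80 and -1.33 for Spc25, and Spc25 did not pass (SE 0.41, edgeR adjusted p = 0.0549). Spc25 was at 15.8, 55.8 and 24.7 CPM in Runx2ko, 87.3, 47.1 and 59.5 CPM in Runx2wt and 87.2, 85.2 and 71.8 CPM in BM progenitor, so Runx2ko replicate 2 was in the range of Runx2wt and the other Runx2ko libraries were below it.

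Of 8 spindle motors and assembly factors, 7 fell in Runx2ko and 2 in Runx2wt. Tpx2, which activates Aurka on the spindle, was at 57.3, 60.5 and 34.7 CPM in Runx2ko, 90.9, 51.0 and 57.9 CPM in Runx2wt and 159, 147 and 176 CPM in BM progenitor, and fell in both transformed groups (log2 fold changes -1.66 in Runx2ko and -1.27 in Runx2wt). Kif4, a chromosome-bound kinesin, was at 7.76, 6.66 and 7.59 CPM in Runx2ko, 16.6, 8.04 and 8.35 CPM in Runx2wt and 25.5, 25.4 and 38.2 CPM in BM progenitor, and fell in both as well (-2.02 and -1.42). For Kif4 the Runx2ko libraries lay just under the lowest Runx2wt library, and for Tpx2 the transformed groups overlapped. The motor that pushes spindle poles apart, Kif11, was at 19.1, 27.0 and 20.3 CPM in Runx2ko, 62.7, 37.7 and 33.7 CPM in Runx2wt and 66.4, 60.7 and 61.0 CPM in BM progenitor. The Runx2ko libraries were below all others. It fell in Runx2ko (-1.50, edgeR adjusted p = 0.00861) and not by this test in Runx2wt (-0.48, edgeR adjusted p = 0.218), where replicate 1 reached the BM progenitor range. Kif15, a motor with a related task, was at 41.4, 76.1 and 43.4 CPM in Runx2ko, 98.8, 65.7 and 53.7 CPM in Runx2wt and 95.8, 98.2 and 111 CPM in BM progenitor, and did not pass in Runx2ko (-0.92, SE 0.29, edgeR adjusted p = 0.0577). Kif2c, a microtubule depolymerase, had the largest error of the members (-2.35, SE 0.71, edgeR adjusted p = 0.0484). It was at 8.09, 13.9 and 0.542 CPM in Runx2ko, 22.0, 14.97 and 9.46 CPM in Runx2wt and 42.2, 33.7 and 41.6 CPM in BM progenitor. Runx2ko replicate 3 was nearly without counts of it.

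**Figure D2:**
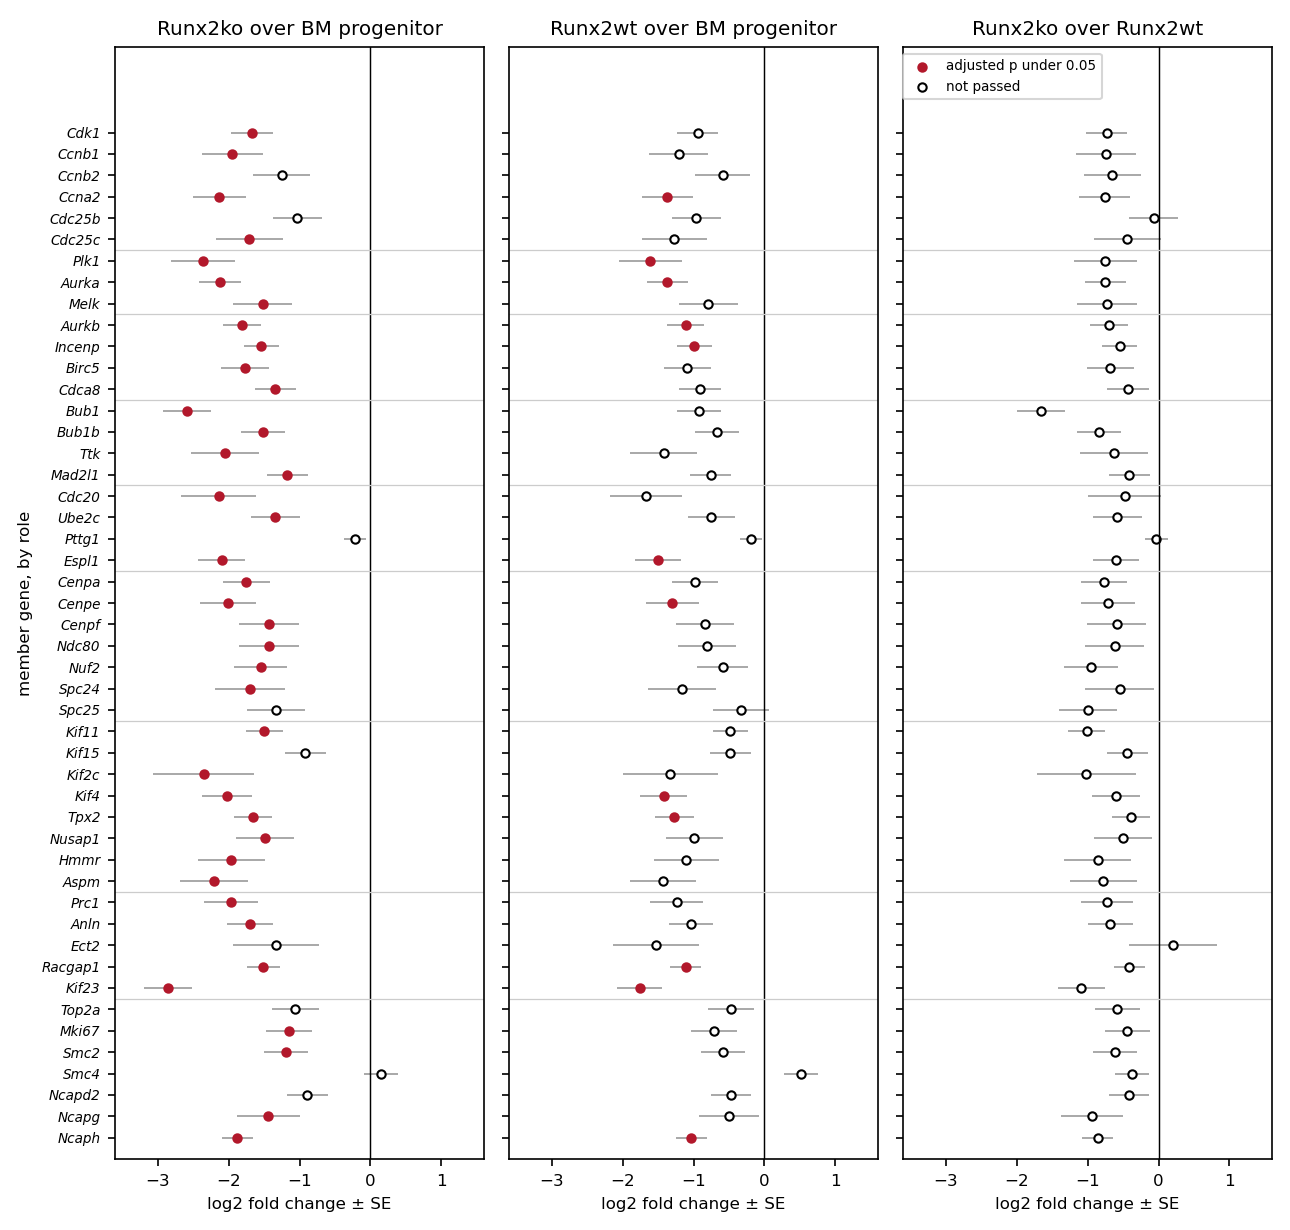
Log2 fold change with its standard error for each of the 48 members (rows, in the same order) in the 3 comparisons, with filled red points for an adjusted p under 0.05 in edgeR. The points lie left of 0 for 47 members in each panel, filled for 39 in Runx2ko over BM progenitor, for 12 in Runx2wt over BM progenitor and for none in Runx2ko over Runx2wt.

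The genes of chromosome structure had the highest median of the 9 roles, -1.15 in Runx2ko and -0.50 in Runx2wt. Condensin I compacts chromosomes with a pair of SMC proteins and 3 other subunits. Ncaph, the subunit that closes the ring, was at 16.5, 16.7 and 16.8 CPM in Runx2ko, 39.9, 25.5 and 25.04 CPM in Runx2wt and 66.4, 54.8 and 63.5 CPM in BM progenitor. Its Runx2ko libraries lay within 1 CPM of each other and apart from both other groups, and it fell in Runx2ko (log2 fold change -1.88, SE 0.22, edgeR adjusted p = 0.00236) and in Runx2wt (-1.03, SE 0.22, edgeR adjusted p = 0.0187). Smc2 and Ncapg fell in Runx2ko (-1.19 and -1.44), where Ncapg was at 4.21, 7.23 and 3.25 CPM, against 14.9, 7.48 and 6.12 CPM in Runx2wt and 15.1, 13.2 and 12.1 CPM in BM progenitor. Ncapd2 was at 127, 192 and 101 CPM in Runx2ko, 260.0, 136 and 165 CPM in Runx2wt and 275, 260.0 and 246 CPM in BM progenitor, and did not pass (-0.89, SE 0.29, edgeR adjusted p = 0.0591). For both, Runx2wt replicate 1 was at the level of BM progenitor. Smc4, the partner of Smc2, was at 218, 352 and 328 CPM in Runx2ko, 396, 492 and 275 CPM in Runx2wt and 277, 276 and 256 CPM in BM progenitor. Its transformed libraries lay on both sides of BM progenitor, and it was the only member with a positive log2 fold change against BM progenitor, 0.15 in Runx2ko (SE 0.24, edgeR adjusted p = 0.701) and 0.52 in Runx2wt (SE 0.24, edgeR adjusted p = 0.167). Both Smc2 and Smc4 also take part in condensin II. Top2a, the topoisomerase that untangles sister chromatids and the most abundant gene of this role, was at 325, 570.3 and 240.4 CPM in Runx2ko, 785, 412 and 507 CPM in Runx2wt and 842, 778 and 744 CPM in BM progenitor, and did not pass in Runx2ko (-1.06, SE 0.33, edgeR adjusted p = 0.0531). Mki67, the surfactant of mitotic chromosomes read as Ki-67, fell in Runx2ko (-1.15, edgeR adjusted p = 0.0385).

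Whether counting used strand is not stated, so values of members whose 3' end meets a gene of the other strand are uncertain. This holds for Cdc20 with Elovl1 (4488 counts over the 9 libraries), Ncapg with Lcorl (977 counts), Ube2c with Tnnc2 (no row in the table), Ccna2 with Exosc9 (191 counts) and Prc1 with Rccd1 (29 counts). Ccnb1, Ccnb2 and Kif4 have annotated pseudogenes with which they may share reads.

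In Runx2wt cells set against BM progenitor cells, 12 of the 48 members fell, none rose and 36 did not pass (edgeR adjusted p under 0.05), where 5.23% of all genes fell and 8.28% rose. They were Ccna2, Plk1, Aurka, Aurkb, Incenp, Espl1, Cenpe, Kif4, Tpx2, Racgap1, Kif23 and Ncaph. The median log2 fold change was -0.99, from -1.76 for Kif23 to 0.52 for Smc4, against 0.01 over all genes, and 47 values were negative (49.3% of all genes). Runx2wt lay wholly below BM progenitor for 38 members (24.5% of all genes), and Runx2wt replicate 1 reached the lowest BM progenitor library for 10 members, among them Top2a, Kif11 and Nuf2. Without Runx2ko replicate 1, which enters the shared estimate of the spread, 27 members fell (12.1% of all genes). The count was 0 without BM progenitor replicate 1, 2 or 3, 1 without Runx2wt replicate 2 or 3 and 22 without Runx2ko replicate 3. For those fits too the share of all genes is not given here. No member passed under all 17 alternatives. A fit of only the 6 compared libraries passed 38 members (16% of all genes). The comparisons of Runx2ko and of Runx2wt with BM progenitor use the same 3 BM progenitor libraries, so they are not independent.

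Between Runx2ko and Runx2wt no member passed (edgeR quasi-likelihood test, smallest adjusted p = 0.511), and 0.0% of all genes did so in either direction. In simulated data the fit recovered 5.36% of 2-fold changes in this comparison, so a member that did not pass may still differ. At an unadjusted p under 0.05, 11 members were lower in Runx2ko (2.78% of all genes) and none higher (5.14%). Without Runx2ko replicate 1 no member passed either, where 0.0258% of all genes fell and 0.0172% rose. Limma-voom also called 0 members, and DESeq2 called 1, Bub1, lower in Runx2ko (DESeq2 adjusted p = 0.0128), where it called 0.111% of all genes lower. By direction alone, 47 of 48 log2 fold changes were negative (48.6% of all genes), with a median of -0.64 against 0.01 over all genes. The median was -0.33 without Runx2wt replicate 1 and -0.42 without Runx2ko replicate 3. Ect2 was the exception at 0.20 (SE 0.62), and at -0.93 without Runx2ko replicate 1. The 6 members whose groups did not overlap were Aurkb, Bub1, Kif11, Kif4, Kif23 and Ncaph, all lower in Runx2ko, where 4.73% of all genes lay wholly lower and 4.95% wholly higher. Bub1 had the lowest log2 fold change, -1.66 (SE 0.34, edgeR adjusted p = 0.511), ahead of Kif23 at -1.09 (SE 0.33), Kif2c at -1.02 (SE 0.70), Kif11 at -1.01 (SE 0.26) and Spc25 at -1.0 (SE 0.41). By role the median was -0.75 for the mitotic kinases, -0.74 for the checkpoint genes and -0.53 for the anaphase group, where Pttg1 stood at -0.03.

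**Figure D3:**
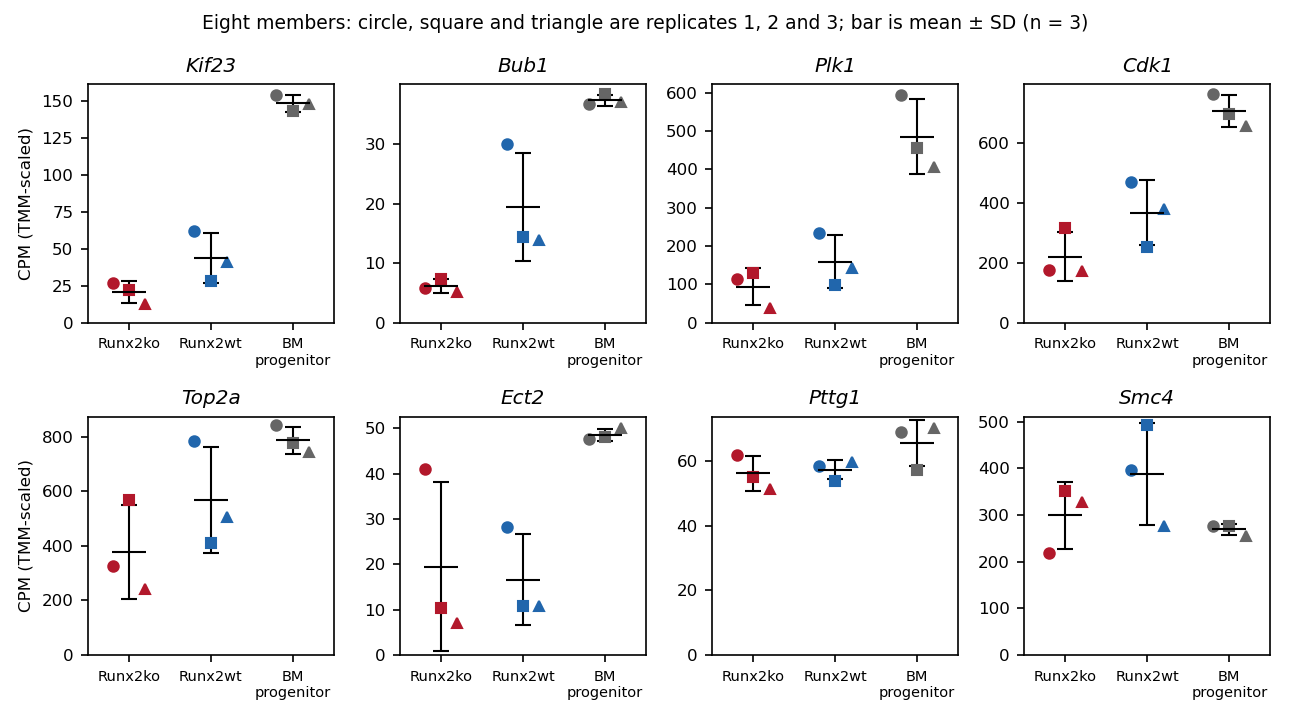
Level in CPM of 8 members in the Runx2ko, Runx2wt and BM progenitor libraries, with circles, squares and triangles for replicates 1, 2 and 3 and bars for the mean ± SD (n = 3 in each group). Bub1 and Kif23 separate the 3 groups, Plk1 and Cdk1 separate only BM progenitor from the rest, Ect2 is high in Runx2ko replicate 1, and Pttg1 and Smc4 overlap throughout.

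The libraries within a transformed group differed from one another by about as much as Runx2ko and Runx2wt did. The median of the 48 members, in log2 units from the BM progenitor mean, was -1.59, -1.21 and -2.06 in the Runx2ko libraries (replicates 1 to 3). It was -0.59, -1.35 and -1.12 in the Runx2wt libraries and 0.08, -0.05 and -0.03 in BM progenitor. Runx2ko replicate 2 was thus above Runx2wt replicate 2. Their summed level was 2724, 3823 and 2066 CPM in Runx2ko, 5762, 3369 and 3833 CPM in Runx2wt and 8254, 7538 and 7445 CPM in BM progenitor. Runx2ko replicate 3 had the lowest value of all 9 libraries for 35 members, and Runx2wt replicate 1 the highest of the 6 transformed libraries for 41. Set against the range of Runx2wt, Runx2ko replicate 2 was below it for 12 members, within it for 35 and above it for 1 (Spc24), whereas Runx2ko replicate 1 was below it for 30 and replicate 3 for 46. The median SD of a member's log2 CPM was 0.58 in Runx2ko, 0.48 in Runx2wt and 0.13 in BM progenitor, and over all genes it was 0.43, 0.29 and 0.19 in the same order, so by this median the members' spread was above that of all genes in both transformed groups and below it in BM progenitor.

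Runx2ko replicate 1, the library with high mast cell markers, also had its own pattern among the mitosis genes. Relative to the mean of Runx2ko replicates 2 and 3, its log2 levels were higher for Ect2 (2.20), Aspm (1.66), Cenpf (1.40), Cdc20 (1.26), Kif2c (1.17), Cdc25b (1.08), Ccnb1 (1.06) and Prc1 (1.04). They were lower for Melk (-1.45), Spc24 (-1.41), Spc25 (-1.20) and Ttk (-0.71). Aspm, a spindle pole protein, was at 15.2, 5.71 and 3.52 CPM in Runx2ko, 17.7, 12.2 and 11.1 CPM in Runx2wt and 41.4, 40.5 and 29.1 CPM in BM progenitor. Spc24 was at 18.4, 88.1 and 28.2 CPM in Runx2ko, 86.0, 59.6 and 52.9 CPM in Runx2wt and 150.4, 154 and 139 CPM in BM progenitor. With 1 library there is no test of this pattern, and the part of the mast cell signal in it was not tested.

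Other genes of the mitotic apparatus, in lists drawn up with earlier results of these data known, gave the following counts for Runx2ko against BM progenitor (edgeR adjusted p under 0.05), where 7.14% of all genes fell and 10.0% rose. Of 22 tested spindle, motor and cytokinesis genes outside the members, 19 fell, among them Gtse1 (mean ± SD of 3 libraries 12.2 ± 1.16 CPM in Runx2ko and 52.7 ± 12.6 CPM in BM progenitor; log2 fold change -2.11), Ckap2 (-2.02) and Tacc3 (-1.54), which bind spindle microtubules. Of 35 further kinetochore and centromere genes, 15 fell, led by Hjurp, the chaperone that loads Cenpa (61.1 ± 6.68 CPM in Runx2ko and 131 ± 8.22 CPM in BM progenitor; -1.10), with Cenpl (-1.56) and Ska3 (-1.84). Of 10 regulators of mitotic entry, 4 fell, among them Ccnf (cyclin F, -2.48), Nek2 (a centrosome kinase, -1.92) and Cdc25a (-1.03). Of 14 condensin II and cohesin genes, 5 fell, including Esco2, which acetylates cohesin (-1.87), Ncapg2 of condensin II (-1.44) and Pds5b (-0.78). Of 16 tested APC/C core, coactivator and inhibitor genes, 2 fell, the coactivator Fzr1 (-0.85) and Cdc27 (-0.71), and 1 rose, Anapc16 (72.1 ± 3.11 CPM in Runx2ko and 47.3 ± 9.46 CPM in BM progenitor; 0.60, and adjusted p = 0.0531 without Runx2ko replicate 1). In this fit of all 9 libraries the APC/C counts are near those shares of all genes. No test of the difference between lists was made. Without Runx2ko replicate 1 the counts that fell were 19, 15, 5, 5 and 4 in the order given (12.6% of all genes), and none of the 16 APC/C genes rose. Over these lists and the 3 described next, 73 genes passed, but 15, 16 and 17 without BM progenitor replicate 1, 2 and 3, and 36 without Runx2ko replicate 3. The share of all genes in those fits is not given here. Between Runx2ko and Runx2wt, no gene of these lists passed in edgeR.

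**Figure D4:**
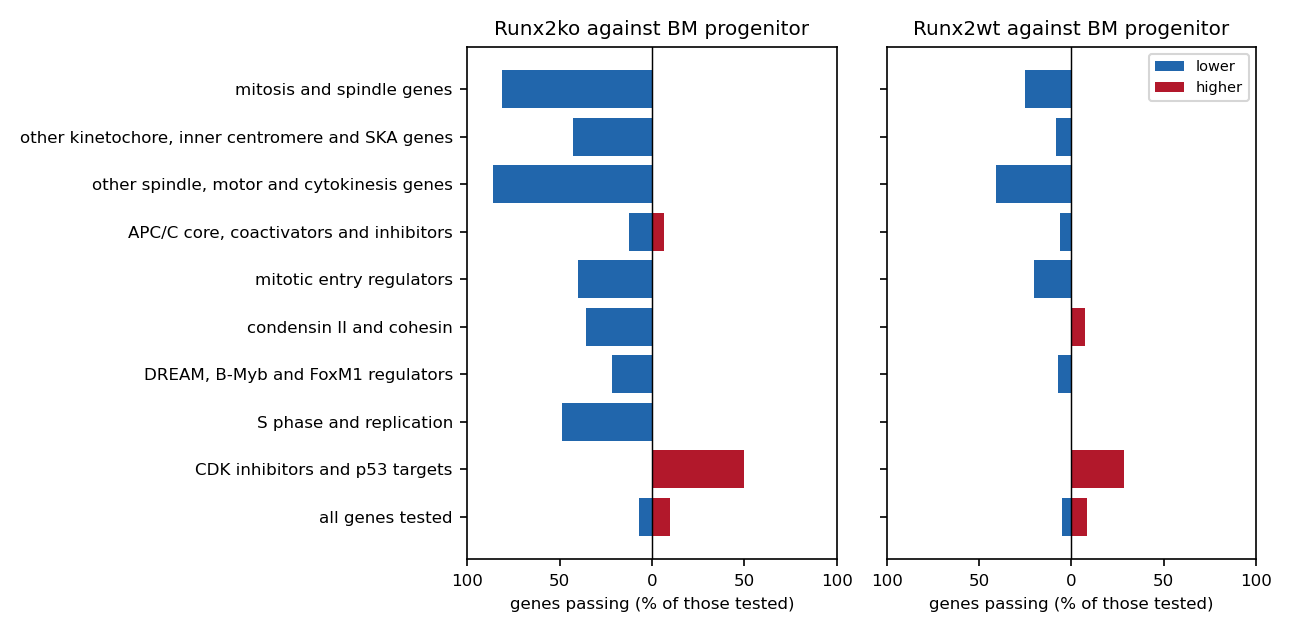
Share of the tested genes of each list that fell (blue, to the left) or rose (red, to the right) at an adjusted p under 0.05 in edgeR, for Runx2ko (left panel) and Runx2wt (right panel) against BM progenitor, with all 11196 genes tested at the bottom. The bars of the mitosis and spindle lists reach farthest to the left in both panels, and the CDK inhibitor and p53 target list is the longest on the right.

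Of 14 tested DREAM, B-Myb and FoxM1 genes, which regulate the members, 3 fell in Runx2ko (7.14% of all genes) and 1 in Runx2wt (5.23% of all genes). Without Runx2ko replicate 1, 5 and 3 fell (12.6% and 12.1% of all genes). Foxm1, the forkhead activator of G2 and M genes, was at 18.8, 18.1 and 9.21 CPM in Runx2ko, 16.7, 14.7 and 17.5 CPM in Runx2wt and 53.8, 34.0 and 41.2 CPM in BM progenitor. Both transformed groups lay below BM progenitor and overlapped each other, with log2 fold changes of -1.49 in Runx2ko (SE 0.30, edgeR adjusted p = 0.0136) and -1.40 in Runx2wt (SE 0.30, edgeR adjusted p = 0.0192). Mybl2 (B-Myb) was at 4.85, 16.6 and 7.32 CPM in Runx2ko, 21.8, 16.4 and 29.2 CPM in Runx2wt and 35.8, 29.9 and 37.0 CPM in BM progenitor, and fell in Runx2ko (-1.81, edgeR adjusted p = 0.0207) but did not pass in Runx2wt (-0.61, edgeR adjusted p = 0.32). Lin9, a MuvB subunit, fell in Runx2ko (-1.55, edgeR adjusted p = 0.0293).

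Of 35 S phase and replication genes, 17 fell in Runx2ko (7.14% of all genes) and 0 in Runx2wt (5.23% of all genes) against BM progenitor (edgeR adjusted p under 0.05). The counts were 19 and 9 without Runx2ko replicate 1, where 12.6% and 12.1% of all genes fell. The smallest p in Runx2ko were those of Rfc3, of the clamp loader (mean ± SD of 3 libraries 16.9 ± 4.52 CPM in Runx2ko and 43.7 ± 3.04 CPM in BM progenitor), Mcm10 (25.6 ± 15.4 CPM and 93.9 ± 3.84 CPM in the same groups) and Mcm7 (85.3 ± 28.4 CPM and 236 ± 24.6 CPM), both of the replication fork. By library, the median of this list in log2 units from the BM progenitor mean was -1.73, -0.43 and -1.26 in Runx2ko and -0.34, -0.76 and -0.51 in Runx2wt. In 5 of the 6 transformed libraries the mitosis genes were lower than the S phase genes, and Runx2ko replicate 1 was the exception.

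Of 14 CDK inhibitors and p53 targets, 7 rose and none fell in Runx2ko, where 10.0% of all genes rose and 7.14% fell. Cdkn1b, Cdkn1c, Cdkn2a, Cdkn2c, Gadd45a, Sesn2 and Bbc3 rose. Mdm2, Ccng1, Btg2, Phlda3, Trp53inp1, Cdkn1a and Cdkn2d did not pass. Bbc3 (202, 61.8 and 68.3 CPM in Runx2ko) and Sesn2 (85.4, 40.9 and 39.8 CPM) were highest in Runx2ko replicate 1. In Runx2wt 4 rose (8.28% of all genes). Leaving out Runx2ko replicate 1, 2 fell in Runx2ko, where 12.6% of all genes fell. In that fit 7 rose, but the share of all genes that rose in it is not given here. Cdkn1b (p27) was at 75.04, 78.8 and 129.8 CPM in Runx2ko, 86.4, 155 and 85.1 CPM in Runx2wt and 19.2, 22.4 and 17.4 CPM in BM progenitor. All transformed libraries were well above BM progenitor, with log2 fold changes of 2.27 in Runx2ko (SE 0.31, edgeR adjusted p = 0.00375) and 2.47 in Runx2wt (SE 0.31, edgeR adjusted p = 0.00327), and Runx2ko and Runx2wt overlapped. Gadd45a, a stress-induced inhibitor of Cdk1, averaged 45.5 ± 4.61 CPM over the Runx2ko libraries, 37.1 ± 8.73 CPM over Runx2wt and 18.2 ± 0.588 CPM over BM progenitor (SD, n = 3 each), and rose in both transformed groups (1.32 and 1.02). Cdkn1c (p57) was at 2.91, 4.38 and 10.03 CPM in Runx2ko, at 1.69, 1.94 and 2.78 CPM in Runx2wt, and had 0 counts in the BM progenitor libraries, so no fold is given. Cdkn2a, the p16 and Arf locus, was at 308 CPM in Runx2ko replicate 1 and at 3.43 and 3.25 CPM in replicates 2 and 3, so its Runx2ko mean rests on that library. It was at 6.02, 4.16 and 7.51 CPM in Runx2wt and 0.182, 0.809 and 0.425 CPM in BM progenitor, where counts were very low. Leaving out Runx2ko replicate 1, it rose against BM progenitor in Runx2ko (2.84, edgeR adjusted p = 0.0111) and in Runx2wt (3.65, edgeR adjusted p = 0.00179). Cdkn1a (p21), the p53 target best known for halting the cycle, did not pass in Runx2ko (-0.45, SE 0.40, edgeR adjusted p = 0.466). Its libraries held 245, 125 and 81.0 CPM in Runx2ko, 112, 169.6 and 262 CPM in Runx2wt and 191, 237 and 188 CPM in BM progenitor. Without Runx2ko replicate 1 it fell (-1.0, edgeR adjusted p = 0.0358). Apart from Cdkn1b, Gadd45a and Cdkn1c, the genes of this list were named after their values were seen.

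**Figure D5:**
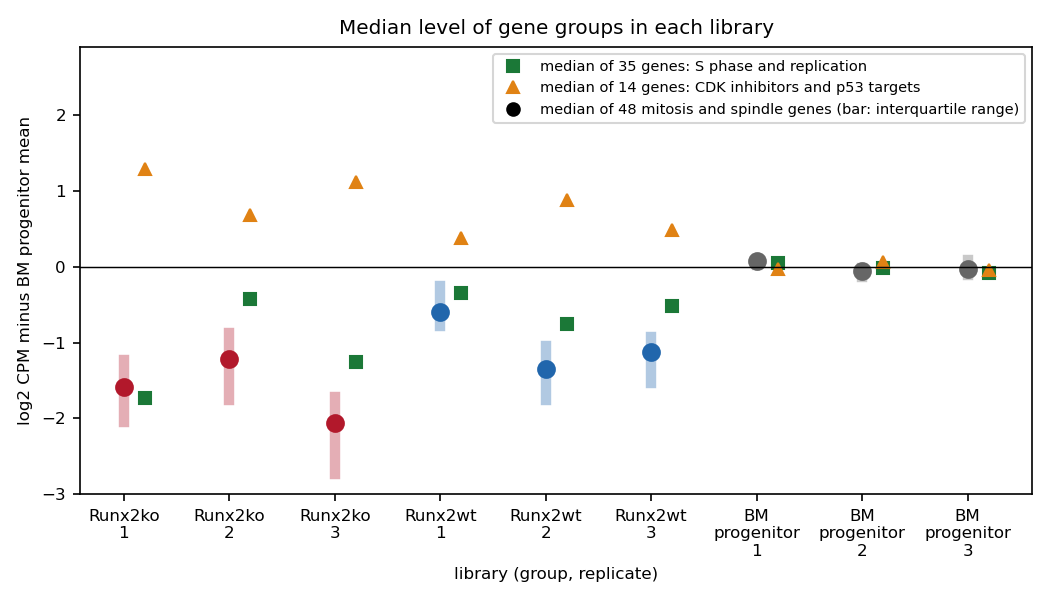
Median level of the 48 mitosis and spindle genes (circles, with bars for the interquartile range of the genes), of 35 S phase genes (squares) and of 14 CDK inhibitors and p53 targets (triangles) in each library, in log2 CPM from the mean of the 3 BM progenitor libraries. In the 6 transformed libraries the circles run from -2.06 in Runx2ko replicate 3 to -0.59 in Runx2wt replicate 1, the triangles lie above 0 in all 6, and the square lies below the circle in Runx2ko replicate 1.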

How the data were processed

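QuantSeq 3' tags were measured in 9 libraries, 3 per group, and groups and replicate numbers were taken from the labels. The deposited files are a table of raw gene counts and a table of other, normalized values, in which each library's counts are divided by 1 constant whose making is not given here. The submitters' processing notes name STAR, FastQC, DESeq2 and build GRCm38, without versions or a counting program. The table holds 21159 genes, of which 21042 matched a symbol of the GENCODE annotation of the same build. Members, roles, related lists and markers were chosen with earlier results of these data known, so no count supports another.

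Counts were tested with the quasi-likelihood F-test of edgeR 4.0.16 (R 4.3.3), with TMM factors and filterByExpr, for 11196 genes in 1 fit of all 9 libraries, which pools the spread. A gene passed when its p, adjusted by Benjamini-Hochberg, was under 0.05. CPM use TMM-scaled library sizes. Library medians use log2 CPM with a prior count of 2, and the heat map a pseudocount of 1. Members named with values in every library were those with the highest mean or the largest fold change of a role, those whose groups did not overlap and those that did not pass. Spc24, and Cdc25c and Kif20a as raw counts, were given outside this rule. Alternatives were DESeq2 1.42.0, limma-voom 3.58.1, RLE factors, 2 other filters on low counts, only the 6 compared libraries, a replicate block, the authors' normalized values and leaving out each library in turn. The fit was tested on simulated data. It recovered 5.36% of 2-fold and 72% of 4-fold changes for Runx2ko against Runx2wt. Against BM progenitor it recovered 8.93% and 70.7% for Runx2ko, and 12.5% and 70.7% for Runx2wt. A gene that did not pass may therefore still differ. Totals of 3118594 to 5348177 counts left Kif20a and other rare transcripts near their counting error. Libraries of the same group differed by more than sampling noise.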

Additional observations from a re-analysis of the deposited data

How the results depend on the processing

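The median log2 fold change of the members kept its sign under each alternative, and for Runx2wt against BM progenitor it ranged from -1.34 to -0.83 when 1 library was left out (-0.84 to -0.33 for Runx2ko against Runx2wt). Counts of calls moved more, and the cause was not tested. For Runx2ko against BM progenitor, leaving out 1 library gave 19 to 42 members passing, against 39 with all libraries, and 15 to 85 genes of the related lists, against 73. For Runx2wt against BM progenitor, it gave 0 to 27 members, against 12, and 2 to 53 related genes, against 21. The other settings that moved this comparison were DESeq2 (22 members and 32 related genes), limma-voom (21 members), a fit of only the 6 compared libraries (38 members and 73 related genes) and the replicate block (12 related genes). For Runx2ko against Runx2wt, DESeq2 passed 1 member, against 0.

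Log2 fold changes of Runx2ko against Runx2wt changed sign for 4 members. When 1 library was left out, Cdc25b ranged from -0.51 to 0.20 (0.11, 0.02 and 0.20 without Runx2wt replicate 1, Runx2ko replicate 2 and Runx2ko replicate 3), Cdc20 from -0.91 to 0.16 (without Runx2wt replicate 1), Pttg1 from -0.11 to 0.03 (0.00 and 0.03 without Runx2ko replicates 2 and 3) and Ect2 from -0.93 to 0.82, with -0.04 without Runx2wt replicate 2 or 3 and -0.93 without Runx2ko replicate 1. Ect2 was also negative with limma-voom (-0.24) and the authors' normalized values (-0.04).

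Same-numbered samples of different groups deviated from their group means with correlations of -0.0659 to 0.0718, so no pairing by replicate number was seen. With 3 libraries in a group, and Runx2ko replicate 1 unlike the other Runx2ko libraries, this cannot exclude pairing. With the replicate number as a block, 32 members passed in Runx2ko and 12 in Runx2wt against BM progenitor, and 0 between Runx2ko and Runx2wt, with 41, 12 and 0 related genes. Genes under about 10 counts, such as Kif20a, were too thinly covered to compare.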
